A study of Mus musculus with 18 samples.

Results

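The 7 mucin-like glycoproteins described here can carry selectin ligands and were followed through 18 mouse RNA-seq libraries: the secreted Glycam1, the CD34 family proteins Cd34, Podxl and Podxl2, the endothelial sialomucin Emcn, the addressin Madcam1, and Parm1. They were chosen by name from knowledge of the proteins, with earlier results of these data known. They are 7 of the 55401 genes listed in the endothelial table and 7 of the 22612 lines of the EO771 table. The endothelial table holds 4 groups of 3 libraries from wild-type female C57BL/6 mice. BEC normal is blood vessel endothelium (CD45- CD31high) sorted from the mammary fat pad, and BEC tumour is the same gate applied to tumours of EO771, a mouse breast cancer line, grown in the fat pad. HEC normal is high endothelium (CD45- CD31high PNAd+) sorted from inguinal nodes of tumour-free mice, and HEC tumour is the same gate applied to inguinal nodes of mice with EO771 tumours, a tissue that the labels name lymph node metastases. The remaining 6 libraries are cultured EO771 cells given vehicle or 12-HETE, a product of the lipoxygenase ALOX12, with 3 libraries each. PNAd is a sulphated sugar epitope that several of these proteins carry, so levels of its carriers in HECs follow in part from the sort. HECs were taken from nodes and BECs from fat pad or tumour, so effects of cell type and of tissue cannot be told apart. The labels do not say that replicates came from separate animals or cultures, so p-values measure the spread between these libraries, which may be technical.

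Sialomucins hold many sugar chains O-linked to serine and threonine along a stretched protein stalk. In high endothelial venules, the vessels through which lymphocytes leave the blood for a lymph node, these chains are sulphated, fucosylated and sialylated, and lymphocytes grip them during rolling. Without those sugars the same proteins do other work: Cd34 and Podxl are found on most vascular endothelium, and Podxl keeps the foot processes of kidney podocytes apart.

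Library totals lay between 56410964 and 79357993 units for endothelium and between 17294591 and 18624179 fragments for EO771. Low endothelial values pile up at multiples of about 3.7, so 1 fragment was taken as 3.7 units, and a library at 0 allows up to 3 fragments, or 11.1 units. Levels are DESeq2 normalised counts, in those units for endothelium and in fragments for EO771, and means are given ± SD with n = 3. A member was called when the DESeq2 Wald test gave it an adjusted p under 0.05 together with a fold change over 2. Members that passed on adjusted p alone are given as such, and ± after a log2 fold change is its SE. Intervals and limits on 0 cover counting error only. The 8 markers listed for high endothelium include Glycam1 and Madcam1, so their sum is no independent check of the high endothelial label. It was 1136 to 1500 CPM in HEC normal, 2329 to 3164 CPM in HEC tumour and 49.7 to 77.4 CPM in BECs. Glycam1 alone gave 573 to 592 CPM in HEC normal and 1078 to 1105 CPM in HEC tumour. Of 7 tested, 4 were called higher in HECs without tumour, against 17.1% of all genes. With tumour 3 were called higher and 1 lower, against 11.2% and 10.7%. Gcnt1 was lower in HECs with tumour on adjusted p alone (-0.61 ± 0.18, adjusted p 0.00197). Chst4, a sulphotransferase of PNAd, was at 0 in every BEC library and at 59212 to 61178 in HEC tumour. In HEC normal it was at 4.07 in replicate 2, which is 1 fragment, against 19906 and 20205 in the other libraries. Glycam1 in HEC normal replicate 2 was close to the rest of its group. Chst2, another sulphotransferase gene of the listed sugar enzymes, was at 0 in both HEC groups. It was at 1431 ± 158 in BEC normal and 133 ± 21.5 in BEC tumour. Ccl21a, a chemokine gene with near-identical copies, was at 0 in every HEC library. In bulk RNA, fewer cells of a type and less RNA per cell cannot be told apart.

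The regulatory letters upstream of the genes at the extremes of the group are shown first: Glycam1, which was abundant in HECs and at 0 in every BEC library, and Madcam1, which was scarce in endothelium and fell in EO771 cells given 12-HETE. Each line is the 250 bases before the RefSeq transcription start in GRCm38.p6, written 5′ to 3′ on the gene's strand. The Glycam1 stretch is chr15:103565082-103565331 on the minus strand and the Madcam1 stretch is chr10:79664309-79664558 on the plus strand. Capitals mark matches to a loose NF-kB core, GGG and CC with any 5 bases between them.
Glycam1: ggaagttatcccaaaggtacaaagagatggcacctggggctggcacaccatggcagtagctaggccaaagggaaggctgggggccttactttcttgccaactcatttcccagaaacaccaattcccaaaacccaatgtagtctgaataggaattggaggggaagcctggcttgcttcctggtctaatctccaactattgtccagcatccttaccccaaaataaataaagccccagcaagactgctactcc
Madcam1: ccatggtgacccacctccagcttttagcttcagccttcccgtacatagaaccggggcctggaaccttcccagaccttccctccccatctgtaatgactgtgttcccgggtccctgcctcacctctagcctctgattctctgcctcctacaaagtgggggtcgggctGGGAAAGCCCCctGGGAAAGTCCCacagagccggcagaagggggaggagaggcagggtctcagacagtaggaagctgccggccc
The Madcam1 stretch held matches that start 84 and 71 bases before the transcription start on the gene's strand, and matches of the opposite strand overlap both. NF-kB is known to act on the Madcam1 promoter when cytokines such as TNF reach endothelium. The loose core matched in 45.8% of all 32851 windows of that length on either strand, so a match says little by itself. No match to that core, to the interferon response core, GAAA and GAAA with any 2 bases between them (2.98% of windows), to the nuclear receptor half-site AGGTCA (14.0%) or to the NKX2 core CACTTNA (10.1%) was present on either strand in the Glycam1 stretch. The Madcam1 stretch held none of the last 3 motifs. The half-site stood in the Emcn window, 153 and 29 bases before its start, and the NKX2 core in the Cd34 window, 132 bases before its start. The loose NF-kB core also matched in windows of Cd34, Podxl2 and Parm1, so among the members it was not particular to Madcam1. These are matches of letters and not measured sites.

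Glycam1 encodes a small secreted mucin of high endothelium and of the lactating mammary gland (chromosome 15, 103562759 to 103565081, minus strand). It separated HECs from BECs completely. The 3 HEC normal libraries held 40089, 39129 and 40336 normalised counts, the 3 HEC tumour libraries held 70900, 71579 and 69695, and all 6 BEC libraries held 0. Every HEC tumour library was therefore above every HEC normal library, and no BEC library had a single fragment. Set against the limit of 11.1 units, the level in HEC normal was at least 3590-fold higher than in BEC normal, and with tumour HECs were at least 6372-fold higher than BECs. Its mean rose with tumour from 39851 ± 638 to 70725 ± 954, a log2 fold change of 0.83 ± 0.05 (1.77-fold, adjusted p 1.04e-70), which is under the 2-fold limit of the call. Whether that rise differs between cell types could not be measured, because the BECs were at 0 in both states (interaction 1.04 ± 1.67, adjusted p 0.648). Per kilobase of merged exons Glycam1 stood above 98.9% of the 18486 genes compared in HEC normal and above 99.5% in HEC tumour, where it ranked 90 from the top. Of 6 milk protein markers, Csn2, Csn1s2a and Lalba were at 0 in all 12 endothelial libraries, and the whole list summed to between 0.135 and 5.5 CPM, against 573 to 1105 CPM for Glycam1 in HECs. Within that list Csn3, the kappa-casein gene, carried nearly all the signal, at 161 ± 31.0 in HEC normal and 322 ± 28.2 in HEC tumour, and it was also present in BEC tumour at 160 ± 60.3.

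**Figure D1:**
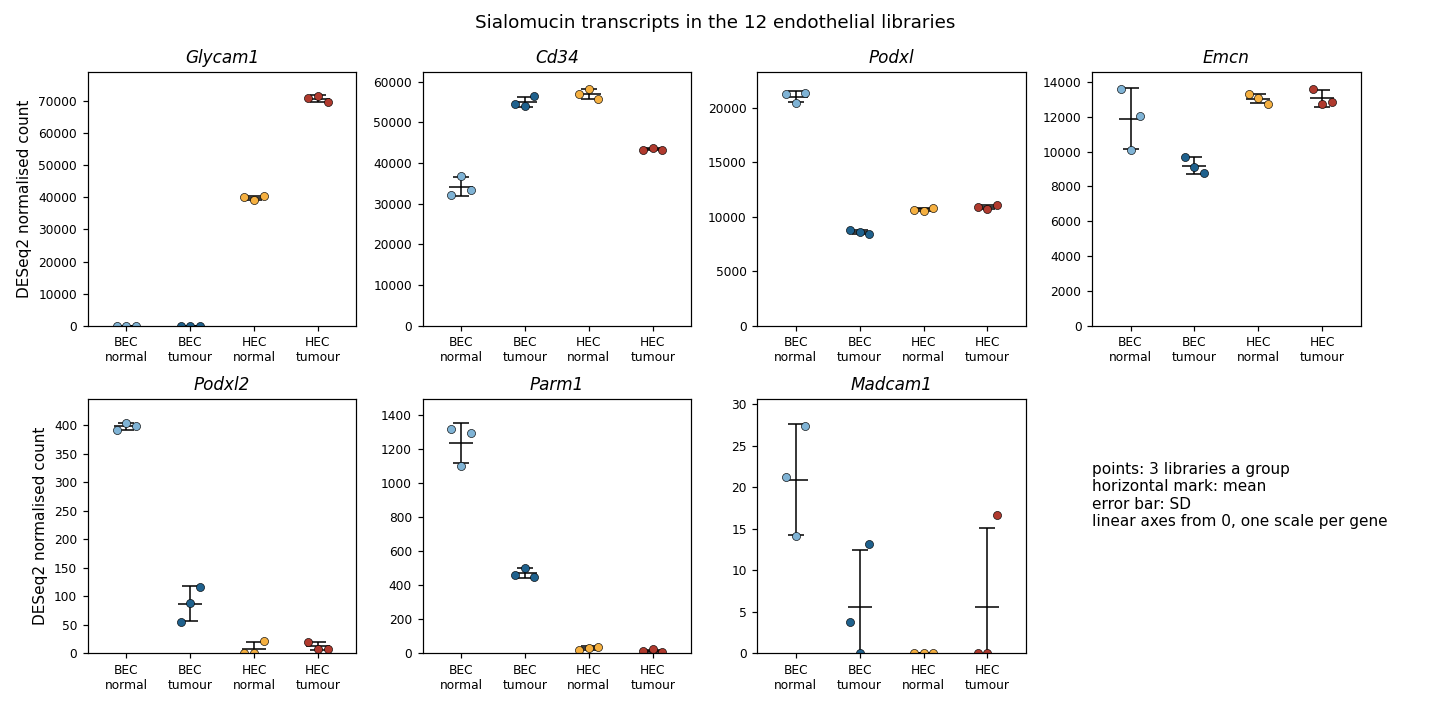
DESeq2 normalised counts of the 7 genes (linear vertical axes from 0, a scale for each gene) in the 4 endothelial groups (horizontal axis), with a point for each library, a mark at the mean and bars of 1 SD (n = 3). Glycam1 is at 0 in all 6 BEC libraries, Cd34 is raised in BEC tumour and lowered in HEC tumour, and Podxl, Podxl2 and Parm1 are highest in BEC normal.

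Cd34 is a transmembrane sialomucin of blood vessels and of haematopoietic progenitors, and in high endothelium it is a main scaffold of PNAd (chromosome 1, 194938819 to 194961279, plus strand). Its level moved in opposite directions with tumour in the 2 cell types. BEC normal libraries held 32223, 36830 and 33495 normalised counts and BEC tumour libraries 54454, 54105 and 56493. HEC normal libraries held 56926, 58116 and 55650 and HEC tumour libraries 43318, 43739 and 43318. The groups did not overlap within either cell type, while the ranges of HEC normal and BEC tumour did. In BECs Cd34 was higher with tumour by a log2 fold change of 0.69 ± 0.05 (1.61-fold, adjusted p 5.73e-35), and in HECs it was lower, at -0.39 ± 0.05 (1.31-fold, adjusted p 1.99e-11). The difference between these changes was -1.08 ± 0.08 (adjusted p 1.82e-42), and Cd34 was called in the interaction. That estimate is close to the 2-fold limit, and a test against a log2 fold change of 1 gave an adjusted p of 1. The order of the cell types turned over with tumour: Cd34 was higher in HECs than in BECs without tumour, by 0.74 ± 0.05 (adjusted p 3.58e-40), and lower in HECs with tumour, by -0.34 ± 0.05 (adjusted p 2.57e-09). The exons overlap the antisense gene Gm16897, and whether counting used the strand is not given in the sources used here. Markers of fibroblasts and adipose progenitors, cells that can also carry CD34, summed to 138 to 147 CPM in BEC normal and 14.0 to 31.0 CPM in BEC tumour, the reverse of the order of Cd34. Col1a1 was the largest of them in BEC normal, at 8436 ± 560 there and 550 ± 320 in BEC tumour. Of those 6 markers 4 were tested, with 2 called higher and 2 lower in tumour BECs, where 12.4% and 10.8% of all genes were. Col1a1 and Pdgfra were the genes called lower. Dcn (1.4 ± 0.54, adjusted p 0.0186) and Pi16 (2.97 ± 0.74, adjusted p 0.000189) were called higher, the direction of Cd34, so the sum does not stand for every marker. Lum was at 0 in BEC normal and at 23.7 ± 27.3 in BEC tumour, and Dpp4 at 3.71 ± 3.54 and 12.1 ± 3.3, both untested. The sum of myeloid markers moved with Cd34, from 114 to 135 CPM in BEC normal to between 1470 and 1966 CPM in BEC tumour, with all 6 called higher. Epithelial markers were also higher in tumour BECs, with 5 of 6 called, at 8.98 to 77.6 CPM against 1.51 to 2.94 CPM. In HECs Cd34 was lower with tumour. The fibroblast and progenitor sum there went from between 17.4 and 19.2 CPM to between 9.50 and 11.4 CPM. Of 4 of these markers tested, 2 were called lower, against 3.21% of all genes. The myeloid sum went from between 485 and 509 CPM to between 357 and 375 CPM there, with none of 6 called. Cd68 made up most of that sum, at 33269 ± 858 and 23315 ± 744 (-0.51 ± 0.06, adjusted p 1.37e-15, under the 2-fold limit). Csf1r was at 25.7 ± 12.7 and 16.8 ± 4.17 and Adgre1 at 1.27 ± 2.21 and 0. Itgam did not fall, with means of 7.89 and 13.5. In HECs 3 of 6 pericyte markers were called lower. The part of any of these cell types in the changes of Cd34 was not tested.

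The ratio of Glycam1 to Cd34 within a library, which does not depend on the scaling between libraries, was 0.704, 0.673 and 0.725 in HEC normal and 1.64, 1.64 and 1.61 in HEC tumour. The groups did not overlap, and the spread within each was small beside the gap between them. Glycam1 stood below Cd34 in normalised counts in all 3 HEC normal libraries and above it in all 3 HEC tumour libraries. Here and for every single gene, 0.1 is the smallest two-sided p that exact permutation of 3 against 3 allows.

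Podxl encodes podocalyxin, a CD34 family sialomucin of podocytes, vascular endothelium and high endothelium (chromosome 6, 31519488 to 31563981, minus strand). Fat pad BECs stood apart from all other groups. BEC normal libraries held 21245, 20404 and 21333 normalised counts, BEC tumour 8752, 8604 and 8369, HEC normal 10641, 10557 and 10782, and HEC tumour 10851, 10718 and 11090. BEC normal lay well above the rest, BEC tumour lay below both HEC groups, and the HEC groups overlapped. Podxl was called lower with tumour in BECs, at -1.29 ± 0.04 (2.45-fold, adjusted p 1.65e-263), while in HECs the change with tumour was 0.03 ± 0.04 (adjusted p 0.586, 95% interval -0.04 to 0.10). The interaction was 1.32 ± 0.05 (adjusted p 1.80e-136), a call. Between cell types without tumour Podxl was lower in HECs by -0.98 ± 0.04 (1.97-fold, adjusted p 3.91e-152), just inside the 2-fold limit. Leaving out BEC normal replicate 2 moved that to -1.01, which would be a call. With tumour it was higher in HECs by 0.34 ± 0.04 (adjusted p 5.79e-19).

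Emcn encodes endomucin, a sialomucin of capillaries and veins that hinders leukocyte adhesion unless it is suitably glycosylated (chromosome 3, 137341067 to 137432185, plus strand). It was the steadiest of the abundant members. BEC normal libraries held 13571, 10092 and 12027 normalised counts, BEC tumour 9697, 9123 and 8778, HEC normal 13295, 13099 and 12748, and HEC tumour 13619, 12720 and 12871. The HEC groups overlapped each other and BEC normal, whose libraries spread most widely (SD 1743 against at most 481 elsewhere), and BEC tumour lay below all of them. In HECs the change with tumour was 0.00 ± 0.10 (adjusted p 1, interval -0.19 to 0.20). In BECs Emcn was lower with tumour by -0.37 ± 0.10 (1.29-fold, adjusted p 0.000509), and the interaction was 0.37 ± 0.14 (adjusted p 0.0186), under the 2-fold limit. HECs exceeded BECs with tumour by 0.51 ± 0.10 (adjusted p 1.30e-06), and without tumour the difference was 0.13 ± 0.10 (adjusted p 0.236). Without BEC normal replicate 1, the highest of its group, the last value became 0.23 with an adjusted p of 0.0106.

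Podxl2 encodes endoglycan, a CD34 family member that can carry selectin ligands when sulphated and glycosylated (chromosome 6, 88842558 to 88875044, minus strand). HECs held almost none of it. BEC normal libraries held 392, 404 and 398 normalised counts and BEC tumour libraries 54.7, 88.0 and 116. HEC normal libraries held 0, 0 and 22.0, and HEC tumour libraries 19.6, 7.89 and 7.75, which is about 0 to 6 fragments each. Every BEC library exceeded every HEC library, and the HEC values lie around the limit of 11.1 units. Without tumour, Podxl2 was called lower in HECs than in BECs (-5.75 ± 0.97, adjusted p 9.47e-09, 95% interval -7.65 to -3.86) and with tumour likewise (-2.88 ± 0.95, adjusted p 0.00588). Within BECs it was called lower with tumour (-2.21 ± 0.92, 4.61-fold, adjusted p 0.0325). The last call was lost when BEC normal replicate 1, 2 or 3 or BEC tumour replicate 1 or 2 was left out (adjusted p 0.0864 to 0.122), although no BEC tumour library reached the BEC normal range, and fitting those groups alone gave an adjusted p of 1.76e-11. In HECs the change with tumour was 0.67 ± 1.00 (adjusted p 0.663), and HEC normal replicate 3 alone supplied the HEC normal signal: without it that group is at 0. Exons of Podxl2 overlap the antisense gene Gm15612.

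Parm1 is a mucin-like androgen-regulated membrane protein first found in prostate (chromosome 5, 91517615 to 91626894, plus strand). Like Podxl2 it was highest in BEC normal, lower in BEC tumour and lowest in HECs, at a higher level. The means of the HEC groups stood in the opposite order to those of Podxl2. BEC normal libraries held 1315, 1098 and 1290 normalised counts and BEC tumour libraries 461, 502 and 448. HEC normal libraries held 15.2, 30.5 and 38.2 and HEC tumour libraries 9.24, 21.7 and 8.85. The BEC groups were separate from each other and from the HECs, and the HEC groups overlapped. Parm1 was called lower in HECs than in BECs, both without tumour (-5.46 ± 0.28, 44.0-fold, adjusted p 2.19e-81) and with it (-5.12 ± 0.33, 34.8-fold, adjusted p 2.11e-51). With tumour it was called lower in BECs (-1.39 ± 0.24, 2.63-fold, adjusted p 2.47e-08) and also in HECs (-1.05 ± 0.37, 2.08-fold, adjusted p 0.0143), the latter on about 4, 8 and 11 fragments against 2, 6 and 2. That call was lost when HEC normal replicate 2 or 3 or HEC tumour replicate 1 or 3 was left out (adjusted p 0.0504 to 0.127), and edgeR gave 0.0516 and limma-voom 0.221.

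The fall of Podxl2 and Parm1 from fat pad BECs to tumour BECs to HECs ran alongside a sum of pericyte markers. Not every marker went that way. Acta2 was the largest of them in BEC normal, at 43028 ± 487 there and 3270 ± 865 in BEC tumour. Des did not fall, at 391 ± 121 in BEC normal, 446 ± 59.9 in BEC tumour and 559 ± 20.3 in HEC normal. Notch3 differed little between BEC normal and HEC normal, at 1199 ± 58.9 and 1056 ± 64.4 (adjusted p 0.389). The 6 pericyte genes summed to 710 to 715 CPM in BEC normal, 68.4 to 101 CPM in BEC tumour, 31.2 to 33.7 CPM in HEC normal and 18.1 to 21.2 CPM in HEC tumour, and Rgs5 alone of the 6 was at 0 in a whole group (HEC tumour). Of the 6, 4 were called lower with tumour in BECs and 4 lower in HECs than in BECs without tumour. Of all genes, 10.8% and 15.1% were. The part of pericyte markers in the values of Podxl2 and Parm1 was not tested. The 10 endothelial markers, of which none was at 0 in a whole endothelial group, summed to between 3423 and 3671 CPM in BEC normal and to between 2419 and 2657 CPM in the other groups.

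Madcam1 encodes the addressin of gut and mesenteric high endothelium, which binds integrin alpha4beta7 and can carry selectin ligands when glycosylated (chromosome 10, 79664559 to 79668537, plus strand). It was scarce in all endothelium here. BEC normal libraries held 21.2, 14.1 and 27.4 normalised counts and BEC tumour libraries 3.71, 0 and 13.1. HEC normal libraries all held 0, and HEC tumour libraries held 0, 0 and 16.6. With at most 7 fragments in any library, Madcam1 was under the filter of a mean of 10 units and was not tested. The mean of BEC normal was 1.88 times the limit on 0 that holds for HEC normal. It rests on about 6, 3 and 7 fragments, whose own counting error is left out, so 1.88 is no lower bound. With no filter the adjusted p of that comparison was 0.00864 and those of the other 4 ran from 0.0743 to 0.999.

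Set side by side, 6 of the 7 members were tested in endothelium. Glycam1 was the only one called higher in HECs than in BECs at over 2-fold and the only one at 0 in BECs. Under 2-fold, Cd34 was higher in HECs without tumour, and Emcn and Podxl were higher in HECs with it. Between HEC normal and BEC normal 1 was called higher (Glycam1) and 2 lower (Podxl2, Parm1), where 17.1% of all 18511 tested genes were called higher and 15.1% lower; 5 passed on adjusted p alone, as did 63.3% of all genes. Between HEC tumour and BEC tumour the same genes gave 1 higher and 2 lower, against 11.2% and 10.7% of all genes, and 6 passed on adjusted p alone against 54.3%. With tumour 3 members were called lower in BECs (Podxl, Podxl2, Parm1) and none higher, against 10.8% and 12.4% of all genes, and 5 passed on adjusted p alone against 53.7%. In HECs 1 was called lower (Parm1) and none higher, against 3.21% and 4.58%, and 3 passed on adjusted p alone against 35.4%. In the interaction 1 was higher (Podxl) and 1 lower (Cd34), against 11.2% and 12.1%, and 3 passed on adjusted p alone against 46.7%. The median log2 fold change of the tested members was -0.42 in HEC normal against BEC normal, -0.83 in BEC tumour against BEC normal and 0.02 in HEC tumour against HEC normal, where the medians over all genes tested were 0.00, 0.01 and 0.02. The comparisons share libraries and are not independent of each other.

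**Figure D2:**
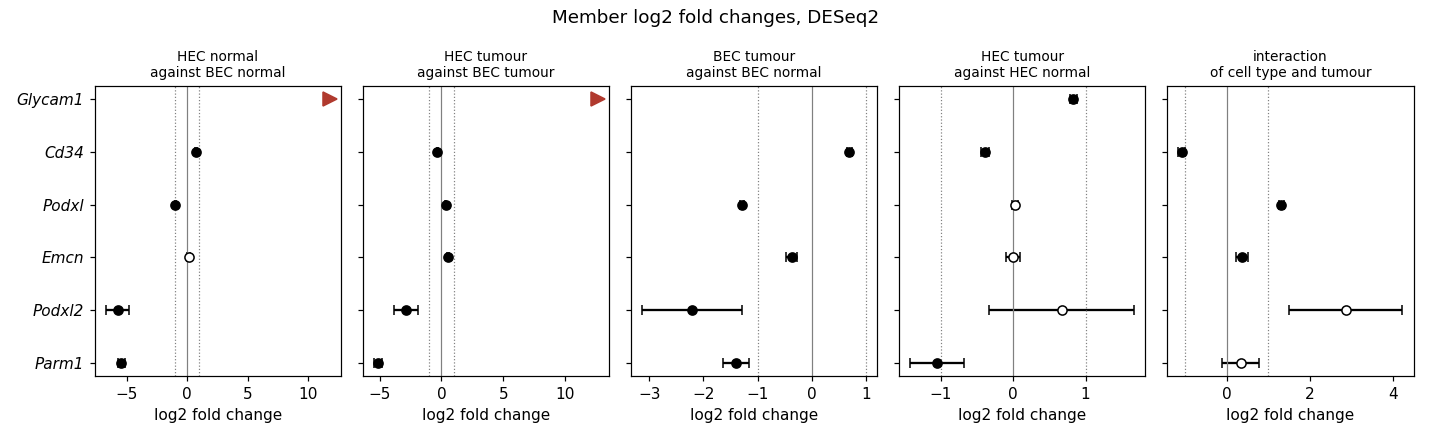
Log2 fold change ± SE (horizontal axes, one scale for each panel) of the 6 tested members in 5 endothelial comparisons. Filled points have an adjusted p under 0.05, dotted lines mark a log2 fold change of 1 in size, and red arrowheads are the lower bounds of Glycam1 against BECs at 0; Glycam1 is left out of the 2 panels where its BEC change has no value. Cd34 lies to the right of 0 in BEC tumour against BEC normal and to the left in HEC tumour against HEC normal.

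Levels of different members can be compared per kilobase of exon. The sum over the 7 genes was 11041 ± 105 normalised counts per kilobase in BEC normal and 10922 ± 117 in BEC tumour, against 30849 ± 170 in HEC normal and 43527 ± 439 in HEC tumour. The sum was thus about the same in both BEC groups while its make-up differed. Cd34 took 42.5 ± 3.36% in BEC normal and 69.1 ± 1.13% in BEC tumour, and Podxl took 34.6 ± 0.594% and 14.3 ± 0.401%. In HECs Glycam1 was the largest share, 60.6 ± 0.716% in HEC normal and 76.2 ± 0.291% in HEC tumour, and Cd34 came next with 25.3 ± 0.643% and 13.7 ± 0.104%. Emcn held 7.82 ± 0.162% and 5.55 ± 0.202% there and Podxl 6.30 ± 0.0582% and 4.56 ± 0.125%. The other 3 members together made up a small remainder, at most 2.20 ± 0.194% for Parm1 in BEC normal. Shares add up to the whole, so a larger share of Glycam1 lowers all the others in the same library. The length of Glycam1 in merged exons, 2133 bases, includes an intron kept by 1 annotated transcript, whereas its longest coding transcript has 641. With coding transcript lengths for all members, a choice made after seeing the data, Glycam1 took 68.0% and 82.1% of the HEC sums, and the order of Podxl and Emcn in BEC normal turned over, from 34.6% and 19.9% to 17.5% and 20.6%. The BEC sums then differed, at 22323 ± 178 and 26826 ± 385 per kilobase.

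**Figure D3:**
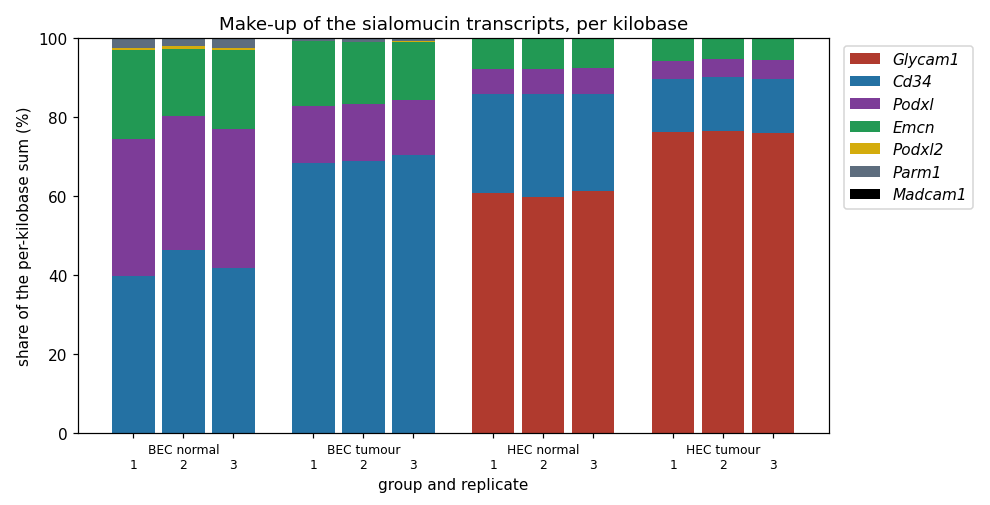
Share of each of the 7 genes in the sum of normalised counts per kilobase of merged exon (vertical axis, percent) in each of the 12 endothelial libraries (horizontal axis, group and replicate). Cd34, Podxl and Emcn fill the BEC bars and Glycam1 fills 59.8% to 76.5% of the HEC bars, with little spread between replicates.

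The members did not share a pattern across the 12 libraries. As a measure of likeness, the root mean square difference of log2(normalised count + 1), centred on each gene's mean, was 0.42 between Cd34 and Emcn, 0.47 between Emcn and Podxl and 0.76 between Cd34 and Podxl, and 1.55 between Podxl2 and Parm1. Glycam1 differed from every other member by 7.69 or more. Among 13284 other genes with a mean of at least 100, the nearest to Glycam1 was Fut7 (2.11), the fucosyltransferase that completes sialyl Lewis X, with 28263 ± 1250 in HEC normal and 48752 ± 29879 in HEC tumour, and the next was Alb, the serum albumin gene (2.87). Fut7 stands in the list of sugar enzymes as well. The nearest to Cd34 were Fam234b and Lcmt1 (0.06 each), to Podxl the kinase gene Fyn (0.06) and the protocadherin gene Pcdh1 (0.10), and to Emcn Sh3glb1 (0.07) and Arl5a (0.08). Podxl2 lay nearest to Nid2 (0.87) and Col4a6 (0.97), both basement membrane genes, and Parm1 to Fam129a (0.53) and Emp2 (0.60). With so many genes compared, a small difference is a description of similar levels and no more.

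Genes around the sialomucins were counted in lists, beside the shares of all 18511 genes tested. Without tumour 17.1% of all genes were called higher and 15.1% lower in HECs than in BECs. With tumour 11.2% were higher and 10.7% lower, and by tumour within HECs 4.58% were higher and 3.21% lower. Of 11 other proteins reported to carry selectin ligands, 10 were tested, with 2 called higher and 4 lower in HECs than in BECs without tumour (median -0.86), none higher and 6 lower with tumour (median -1.43), and none by tumour within HECs (median -0.03). In HECs with tumour Glg1, the E-selectin ligand ESL-1, was lower by -0.28 ± 0.08 (adjusted p 0.00292), from 7816 ± 304 to 6451 ± 113. Cd164, endolyn, stood at 9139 ± 493 and 9812 ± 129 (adjusted p 0.182) and Selplg, the P-selectin ligand PSGL-1, at 38.2 ± 12.6 and 61.9 ± 2.72 (adjusted p 0.219). Cd300lg, also called nepmucin, an Ig-domain mucin of high endothelium, was at 0 in all 6 HEC libraries and at 5.10 ± 5.30 in BEC normal and 24.4 ± 29.1 in BEC tumour, under the filter.

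The sugars themselves are made by enzymes of which 15 of 16 listed were tested. In HEC normal against BEC normal 4 were called higher and 3 lower (median 0.00), and in HECs with tumour none higher and 1 lower (median 0.00). The one called was Chst1, a keratan sulphate Gal-6-sulphotransferase, at -1.24 ± 0.12 (adjusted p 3.98e-23), from 5034 ± 463 to 2130 ± 167. B3gnt3, which extends the core 1 chains that carry PNAd, was lower by -0.75 ± 0.07 (adjusted p 8.34e-22), and B4galt4 by -0.46 ± 0.11 (adjusted p 9.23e-05), both under the 2-fold limit. Not all of the list went down: Slc35c1, the Golgi GDP-fucose transporter, was higher by 0.28 ± 0.09 (adjusted p 0.00952). The mean of Chst4 was 13372 ± 11578 without tumour and 60244 ± 987 with it (adjusted p 0.512), and that of Fut7 was 28263 ± 1250 and 48752 ± 29879 (adjusted p 0.594), with HEC tumour replicate 3 at 14255 and the other libraries of that group at 65523 or above. Slc35c1, Chst2, Chst4 and Fut7 are named after their values were seen.

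Inside the cell, podocalyxin and its kin bind ERM proteins and NHERF adaptors through their tails. Of 7 such genes, all tested, none was called in HECs with tumour (median 0.34). Slc9a3r1, which encodes NHERF1, changed with tumour in the directions that Cd34 did: it was called higher in BECs, from 2910 ± 145 to 12463 ± 218 (2.10 ± 0.08, adjusted p 7.28e-163), and was lower in HECs, from 8316 ± 237 to 4200 ± 413 (-0.99 ± 0.08, adjusted p 6.20e-36, under the 2-fold limit). Moesin (Msn) was higher in HECs with tumour by 0.52 ± 0.06 (adjusted p 3.55e-19) and ezrin (Ezr) by 0.34 ± 0.04 (adjusted p 5.40e-15).

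Selp and Sele encode endothelial receptors for these sugars, and neither was called in HECs with tumour. Selp, stored by endothelium, rose from 9944 ± 342 to 15843 ± 292 (0.67 ± 0.04, adjusted p 3.82e-56), and Sele, induced on inflamed endothelium, from 1015 ± 76.5 to 1572 ± 97.0 (0.63 ± 0.09, adjusted p 2.12e-10), both under the 2-fold limit.

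Of 4 genes tied to Madcam1, as transcription factors of its high endothelium or subunits of its receptor, 3 were tested and none was called in HECs with tumour. Nr2f2, which encodes the venous factor COUP-TFII, was higher there by 0.61 ± 0.16 (adjusted p 0.000637), Itga4 was higher by 0.62 ± 0.18 (adjusted p 0.00208), and Itgb7 was lower by -0.69 ± 0.13 (adjusted p 7.55e-07). Nkx2-3, a homeobox factor needed for Madcam1 in gut-associated vessels and named here after its values were seen, was at 37.2 ± 8.34 in BEC normal and at no more than 4.06 in any other library, under the filter. BEC normal was thus the group with the highest mean of both Nkx2-3 and Madcam1, at a few fragments each.

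With tumour in BECs, 12.4% of all genes were called higher and 10.8% lower. The same lists gave 2 higher and 3 lower of the other carriers (median 0.01). The enzymes gave 1 higher and 4 lower (median 0.00). The adaptors gave 1 higher and 1 lower (median -0.19), and the genes tied to Madcam1 gave 2 lower (median -1.08). Chst1 was among the enzymes called lower, at -2.08 ± 0.12 (adjusted p 2.43e-62), and Nr2f2 (-1.08 ± 0.16, adjusted p 4.44e-11) and Itgb7 (-2.67 ± 0.14, adjusted p 1.53e-81) were the genes lower in the last list. Selplg, a gene of leukocytes, was called higher at 4.48 ± 0.45 (adjusted p 2.69e-22), from 17.1 ± 6.60 to 378 ± 171, beside the higher myeloid markers, whose part in this was not tested.

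EO771 cells, which grow as epithelium-like tumour cells (6 epithelial markers summed to 1930 to 3785 CPM), expressed a different subset. Glycam1 and Emcn were at 0 in all 6 libraries, Cd34 had at most 4 fragments and Podxl2 at most 2 in any library. The 3 members that passed the filter were Podxl, Parm1 and Madcam1, and 1 of them was called lower with 12-HETE and none higher, where 7.79% of 11602 genes were called lower and 2.38% higher; 2 passed on adjusted p alone, as did 47.0% of all genes.

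Madcam1 was the one called. Vehicle libraries held 13.9, 70.7 and 36.9 normalised counts, and 12-HETE libraries held 1.03, 0.986 and 0.984, which is 1 fragment in each. All vehicle libraries exceeded all 12-HETE libraries, and the vehicle libraries spread widely among themselves. The log2 fold change was -5.34 ± 1.04 (adjusted p 1.90e-06), and all 13 alternatives kept the call with values from -5.76 to -4.50. Summed over libraries, 124 fragments stood against 3, a ratio of 40.9 with an exact 95% counting interval of 13.7 to 201. The level is low even with vehicle, at 0.768 to 3.99 CPM. Of 10 endothelial markers 4 were tested in these cells, with 1 called lower with 12-HETE and none higher. The one called was Pecam1 (-1.79 ± 0.44, adjusted p 0.000246), while Egfl7 did not fall (0.12 ± 0.19, adjusted p 0.627). Under the filter, Cdh5 went from 14.5 ± 4.99 to 0 and Sele from 14.7 ± 7.86 to 2.67 ± 0.61. Whether the fall of Madcam1 was shared with such genes was not tested.

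Podxl was higher with 12-HETE, at 517, 484 and 483 normalised counts against 385, 216 and 409 with vehicle, and the groups did not overlap. The log2 fold change was 0.55 ± 0.23 (1.47-fold, adjusted p 0.0322), under the 2-fold limit, and vehicle replicate 2 set much of its size: without it the value was 0.31 (adjusted p 0.0255). The adjusted p was 0.0697 by edgeR, 0.0509 by limma-voom and 0.0960 to 0.131 when a 12-HETE library was left out. Parm1 stood at 362, 367 and 384 with vehicle and 354, 360 and 333 with 12-HETE (-0.09 ± 0.12, adjusted p 0.572, 95% interval -0.33 to 0.15). The vehicle libraries differed more among themselves over all genes than the 12-HETE libraries did, with a chi-square per gene of 16.5 to 46.3 against 2.39 to 2.72.

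Around the members, none of 8 other ligand carriers (median 0.35) tested in EO771 cells was called. The same held for 9 sugar enzymes (median 0.24) and 7 tail adaptors (median 0.17). Among all genes 2.38% were called higher and 7.79% lower. Selp was called lower with 12-HETE (-1.63 ± 0.67, adjusted p 0.0344) at 28.8 ± 23.4 against 9.30 ± 3.09. Itga4, the alpha chain of the Madcam1 receptor, was called higher (1.79 ± 0.45, adjusted p 0.000325), from 10.6 ± 3.40 to 36.5 ± 6.03, while Itgb7, its beta chain, stood at 23.2 ± 5.75 and 31.0 ± 2.09 (adjusted p 0.378).

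**Figure D4:**
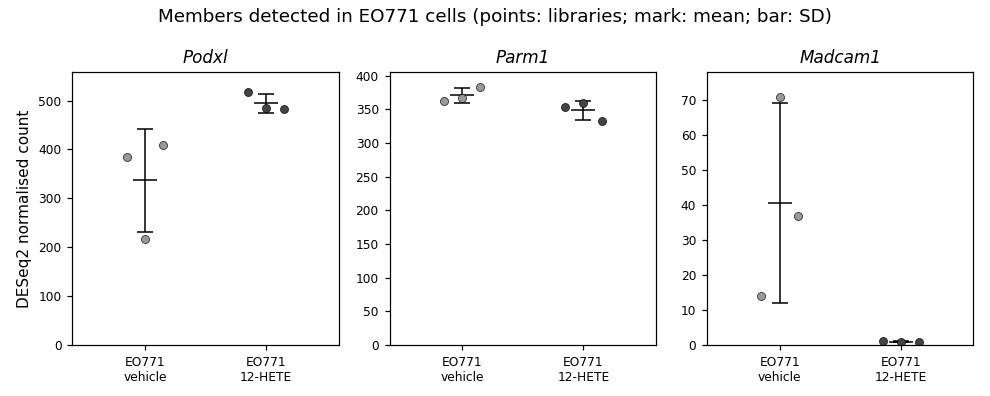
DESeq2 normalised counts (vertical axes from 0, a scale for each gene) of the 3 members that passed the filter in EO771 cells given vehicle or 12-HETE, with a point for each library, a mark at the mean and bars of 1 SD (n = 3). Madcam1 is at 1 fragment in each 12-HETE library, and vehicle replicate 2 is the lowest for Podxl and the highest for Madcam1.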

How the data were processed

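For the endothelial libraries, the authors mapped reads to GRCm38 with STAR, counted fragments per gene with featureCounts and deposited 1 value per gene and library. Those deposited values were treated as estimated counts, since their low values rise in steps of about 3.7 (searched between 3 and 5). Dividing the totals by the step gave 15.2 to 21.4 M per library. For EO771 cells, the authors deposited raw counts per gene symbol. For EO771 the methods name a directional kit and, for RNA editing, removal of duplicates. Whether either applies to the deposited counts, and whether any counting used strand, is not given in the sources used here, and labels and methods name different library kits. Of the endothelial identifiers 260 had no match in the reference, and 68 EO771 lines carry a repeated symbol.

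Genes with a mean of at least 10 were tested (18511 endothelial, 11602 EO771) with the two-sided DESeq2 Wald test (DESeq2 1.42.0, R 4.3.3), in 1 fit of all 12 endothelial libraries and 1 of the 6 EO771 libraries, fitted by group alone with Benjamini-Hochberg adjustment over all genes tested. The interaction subtracts the tumour effect in BECs from that in HECs. Calls needed an adjusted p under 0.05 and a fold over 2. The limit on 0 is 3 fragments per library. Shares used merged exon lengths. Scripts were tested on simulated data. Tables were prepared in Python 3.11.15 with pandas 2.3.3 and scipy 1.17.1. Alternatives were edgeR 4.0.16, limma 3.58.1 (voom), TMM size factors, no filter, a test against a log2 fold change of 1, adjusted p alone, values divided by their step, only the groups compared, a replicate block and leaving out each library.

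The members, lists and tests were chosen with earlier results of these data known. Named besides the members were the up to 3 genes of each list with the largest Wald statistic in HEC tumour against HEC normal, Cd300lg, and the 2 genes most like each member. No replicates looked like 1 library deposited again, with a chi-square per gene between replicates of 2.39 or more. In EO771 the same-numbered libraries deviated together (r from 0.12 to 0.36 in 3 of 3 pairs, source of the numbers the labels), and the paired fit with the replicate block kept Madcam1 at -5.20. Protein sequences were not used here. Of the 7 genes, 6 matched an entry of the RefSeq promoter table, Podxl not. 1 gene of a list is not reported here.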

Additional observations from a re-analysis of the deposited data

Results flagged for a closer look

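For 3 of the members the tumour effect was not the same in HECs and BECs, by the interaction term of the DESeq2 fit. For Cd34 the difference was -1.08 ± 0.08 (adjusted p 1.82e-42), with a rise in BECs and a fall in HECs. The groups of unpaired libraries did not overlap within either cell type. For Podxl it was 1.32 ± 0.05 (adjusted p 1.80e-136), with a fall in BECs and no detectable change in HECs. For Emcn it was 0.37 ± 0.14 (adjusted p 0.0186), on a lower level in BEC tumour. Groups of 3 libraries were not tested for outlying samples.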

How the results depend on the processing

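By adjusted p alone the members called numbered 5 in HEC normal against BEC normal, 6 in HEC tumour against BEC tumour, 5 in BEC tumour against BEC normal, 3 in HEC tumour against HEC normal and 2 in EO771 cells. The call in HEC tumour against HEC normal (Parm1) fell to 0 members under edgeR, limma-voom, a test against log2 1, values divided by their step and only the groups compared, and the cause was not tested. Testing against a log2 change of 1 left 1 member in BEC tumour against BEC normal and 1 in the interaction, in both cases Podxl. Leaving out a library gave 0 to 1 members called in HEC tumour against HEC normal, 3 to 4 in HEC normal against BEC normal, 2 to 3 in BEC tumour against BEC normal and 2 to 3 in the interaction. Of the log2 fold changes of members under all alternatives, 583 kept their direction and side of the threshold, 41 kept their side with a value of 0.00 on either end, 19 lost the call and 17 gained it. In 1 case the direction turned, the uncalled Parm1 interaction, at -0.25 without HEC tumour replicate 2 (adjusted p 0.72), where leaving out each library gave up to 0.63. Low fragment numbers limit Podxl2, Parm1 and Madcam1 in HECs.

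In endothelium equal replicate numbers did not pair the libraries (r from -0.07 to 0.22 in 18 pairs, 1 of them over 0.1). With the replicate block 3 members were called in the interaction against 2 without it, the addition being Podxl2 at 3.85 (adjusted p 0.0217, against 2.87 and 0.0697), and the block changed no other call. Podxl2 also passed in the interaction by limma-voom (4.77, adjusted p 0.0174) and with values divided by their step (2.92, adjusted p 0.0061). Without HEC normal replicate 3, which holds all the HEC normal signal of Podxl2, its interaction was 8.16 (adjusted p 1.24e-06) and its change with tumour in HECs 5.96 (adjusted p 0.000606), both then calls, so that Podxl2 took the place of Parm1 in the latter count. HEC normal against BEC normal then gave -11.05 (adjusted p 1.1e-12) for Podxl2. With HEC normal then at 0, the sizes of these values depend on the fit and are no bounds.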
